A study of Mus musculus with 36 samples.

Results

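Immunoglobulin heavy and light chain genes were described in knee joints of mice with an injured anterior cruciate ligament (ACL) that received a protein kinase C (PKC) inhibitor, in injured joints that received 0.9% saline as vehicle, and in sham joints without ACL injury. Every gene of the count table whose name marks it as a variable (V), diversity (D), joining (J) or constant (C) segment of an immunoglobulin locus was taken if it had at least 10 read counts summed over the 9 libraries. The name pattern matched 393 of the 55291 genes in the table, and 50 reached the minimum. Another 122 had 1 to 9 counts and 221 had none. The members were 7 heavy-chain constant genes, the kappa constant gene Igkc, 3 lambda constant genes, 13 heavy, 12 kappa and 3 lambda V segments, and 4 heavy, 4 kappa and 3 lambda J segments. None of the 20 D segments reached the minimum, and Ighe, the constant gene of IgE, had 0 counts. The last member inside the minimum was Ighv5-2 with 10 counts. The 8 genes just outside it, with 9 counts each, were Ighd4-1, Ighv4-1, Ighv9-3, Igkv5-43, Igkv3-4, Igkv3-2, Igkv8-16 and Igkv6-17.

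The series holds 36 libraries in 3 sets. The set used here has 3 PKC inhibitor libraries, 3 vehicle libraries and 3 sham libraries, named by the design text as biological replicates and all collected at 24 h. RNA was depleted of ribosomal RNA and sequenced as read pairs of 100 bp. Strain, age, sex and the name of the inhibitor are not given in the sources used here. The labels of these samples call the tissue knee joint, while a protocol text elsewhere in the series calls that set cartilage. The cartilage genes Col2a1 (847 to 16403 normalised counts) and Acan (95.3 to 879) and the lubricin gene Prg4 (545 to 6431) were counted in all 9 libraries, and so were all listed genes of marrow neutrophils and skeletal muscle.

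An antibody is built of heavy and light chains. In the mouse the heavy-chain locus lies on chromosome 12, the kappa locus on chromosome 6 and the lambda locus on chromosome 16. A developing B cell joins a V, a D and a J segment to make a heavy-chain variable region, and a V and a J segment to make that of a light chain. The constant gene used then sets the class: Ighm gives IgM and Ighd gives IgD, which naive B cells carry together, while Ighg1, Ighg2b, Ighg2c and Ighg3 give the IgG subclasses and Igha gives IgA after class switching. Plasma cells secrete antibody and hold far more of these transcripts per cell than resting B cells do. In a bulk sample, fewer cells of a type and less RNA per cell cannot be told apart.

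The J segments are short, and their sequences are shown because they are what the J counts rest on. They are given 5′ to 3′ on the coding strand from the GENCODE M21 transcripts on GRCm38, in which all 50 members have the same span as in the count table. Capitals mark the codons of the conserved tryptophan or phenylalanine, glycine, any residue, glycine motif, found by a search of the coding strand for TGGGGNNNNGGN in heavy J segments and for TTCGGNNNNGGN or TTTGGNNNNGGN in light J segments. All 11 J members held it, as did 12 of the 14 J genes of the table found in that annotation.
Ighj1: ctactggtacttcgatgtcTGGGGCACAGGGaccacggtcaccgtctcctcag
Ighj2: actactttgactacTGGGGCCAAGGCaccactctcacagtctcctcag
Ighj3: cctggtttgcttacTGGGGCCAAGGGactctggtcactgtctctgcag
Ighj4: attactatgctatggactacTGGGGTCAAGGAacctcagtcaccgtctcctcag
Igkj1: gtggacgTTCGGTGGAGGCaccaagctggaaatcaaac
Igkj2: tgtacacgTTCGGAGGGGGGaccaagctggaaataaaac
Igkj4: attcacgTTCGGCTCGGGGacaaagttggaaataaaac
Igkj5: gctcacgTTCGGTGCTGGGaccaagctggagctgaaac
Iglj1: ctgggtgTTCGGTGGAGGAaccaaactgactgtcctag
Iglj2: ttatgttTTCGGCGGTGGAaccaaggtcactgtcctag
Iglj3: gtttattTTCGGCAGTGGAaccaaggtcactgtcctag
The heavy J segments lie in a row at chr12:113428514-113428567 (Ighj4), chr12:113429085-113429132 (Ighj3), chr12:113429468-113429515 (Ighj2) and chr12:113429781-113429833 (Ighj1), all on the minus strand. Iglj2 and Iglj3 matched at 32 of 33 aligned bases. The Iglj2 exon, chr16:19200198-19200235, lies inside an exon of Iglc2, a gene that spans chr16:19198396-19200351. Reads over several genes were counted for each of them, so Iglj2 counts are also Iglc2 counts.

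Close V segments share reads, because reads with several genomic positions were counted in full at every one. The clearest case is Ighv1-62-2 and Ighv1-71, whose coding starts are shown from the first base of the start codon. The capital marks the only difference, T8G, in this stretch, counted from 1 at the first base shown.
Ighv1-62-2: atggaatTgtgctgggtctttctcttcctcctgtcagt
Ighv1-71: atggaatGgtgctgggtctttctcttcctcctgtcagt
These stretches lie at chr12:115446813-115446850 and chr12:115742610-115742647, both on the minus strand. The pair matched at 358 of 359 aligned bases and had the same count in every library, 2 in PKC inhibitor library 1, 12 in sham library 2 and 0 in the others. They cannot be told apart in these counts. Of the 39 members long enough for a window of 100 bases, 15 shared at least 1 such window with another immunoglobulin gene of the table. No constant gene did, although Iglc2 and Iglc3 matched at 95.5% of aligned bases.

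Depth limits everything that follows. The libraries held 124309584 to 202134770 counts, of which 7SL RNA genes took 91.2% to 98.2%. That left 3282084 to 11945772 counts elsewhere, of which the members held 464 to 1496 per library and the constant genes 396 to 1181. PKC inhibitor libraries 1 and 2 stood apart, with 7SL shares of 91.5% and 91.2%, and the small nucleolar RNA U3 took 53.6% of the counts outside 7SL in library 1, against 9.14% to 38.9% in the other 8. Normalised counts are TMM-scaled (edgeR's trimmed mean of M values).

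The heavy-chain constant genes gave 4651 of the 7005 member counts, Igkc 613 and the lambda constant genes 476. Per kilobase of exon, and as the mean normalised count over the 9 libraries, Ighm stood first at 264 and Igkc second at 150. The lambda genes followed at 42.7 for Iglc3, 39.9 for Iglc2 and 38.0 for Iglc1, which did not differ beyond their spread. Ighd was at 15.4 and Igha at 10.8. The IgG genes were lowest, with Ighg2c at 5.23, Ighg2b at 3.99, Ighg3 at 2.18 and Ighg1 at 1.56. Per kilobase, Ighm exceeded Igkc in each library, by 1.38 to 2.57 times.

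Summed over the 11 constant genes, immunoglobulin transcripts were lowest in PKC inhibitor joints and highest in sham joints. The sum was 330.8, 425.8 and 514.0 normalised counts in the PKC inhibitor libraries. Vehicle libraries had sums of 699.5, 672.8 and 645.2, and sham libraries sums of 856.9, 1548.3 and 814.7. The 3 groups did not overlap, and sham library 2 stood well above the other sham libraries. The means were 424 ± 91.6 with the inhibitor, 672.5 ± 27.2 with vehicle and 1073 ± 412 in sham joints (SD, n = 3 each). Against sham joints the mean was 2.53-fold lower with the inhibitor and 1.60-fold lower with vehicle, and it was 1.59-fold lower with the inhibitor than with vehicle. The sum was not tested. Without sham library 2 the log2 ratio to sham joints was -0.98 with the inhibitor and -0.31 with vehicle, against -1.34 and -0.67 with all libraries. Expressed instead as CPM of the counts outside 7SL RNA, the vehicle libraries, at 114 to 128, overlapped the sham libraries, at 115 to 225, while the PKC inhibitor libraries, at 36.9 to 111, stayed below both.

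**Figure D1:**
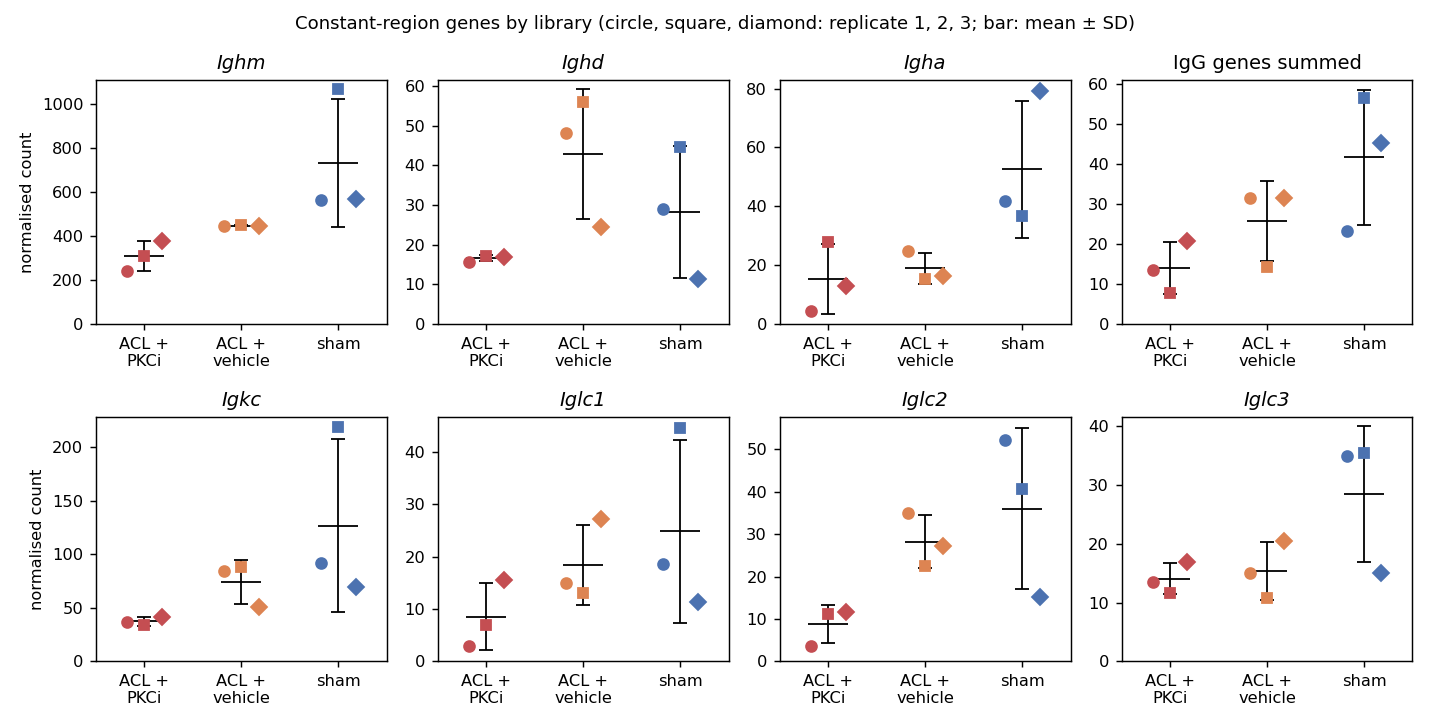
Normalised counts (vertical axes, from 0) of Ighm, Ighd, Igha, the 4 IgG genes summed, Igkc, Iglc1, Iglc2 and Iglc3 in joints with ACL injury and PKC inhibitor, ACL injury and vehicle, and sham joints. Points are libraries, with the marker giving the replicate number, and bars give the mean ± SD (n = 3); Ighm was 240.0 to 377.7 in PKC inhibitor libraries, 445.3 to 452.9 in vehicle libraries and 565.1 to 1071.1 in sham libraries.

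PKC inhibitor joints were compared with sham joints first, a contrast that joins injury and inhibitor. Ighm, Igkc and Iglc2 were lower, and no member was higher. They were 3 of the 13 members that passed the filter on low counts, while 2.68% of all 13823 genes tested were called lower in this comparison and 1.27% higher. The other 37 members, among them all V segments, were not tested in this fit. By an unadjusted p under 0.05, 8 members passed, among them Iglc2 and Iglj2, which share reads. Numbers by unadjusted p, here and below, have no share over all genes beside them and are not read as results.

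Ighm, chr12:113418558-113422730 on the minus strand, encodes the constant region of IgM. It had 240.0, 308.9 and 377.7 normalised counts in PKC inhibitor libraries, 445.3, 452.9 and 447.4 in vehicle libraries, and 565.1, 1071.1 and 567.6 in sham libraries. No 2 groups overlapped, and the vehicle libraries lay close together. The log2 fold change to sham joints was -1.25 ± 0.25 (SE) with the inhibitor (edgeR adjusted p = 0.0152). It was -0.71 ± 0.25 with vehicle (adjusted p = 0.367), and -0.54 ± 0.25 for the inhibitor over vehicle (adjusted p = 0.365). The call against sham joints was lost without sham library 2 (adjusted p = 0.0692) and without PKC inhibitor libraries 1 and 2 together (adjusted p = 0.184).

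Igkc, chr6:70726435-70726966 on the plus strand, encodes the constant region of kappa light chains. It had 36.8, 33.9 and 41.5 normalised counts in PKC inhibitor libraries, 84.7, 88.0 and 50.5 in vehicle libraries, and 91.9, 218.9 and 69.8 in sham libraries. The inhibitor libraries were below all others, and vehicle and sham libraries overlapped. The log2 fold change to sham joints was -1.78 ± 0.39 with the inhibitor (adjusted p = 0.0216). For the inhibitor over vehicle it was -1.0 ± 0.39 (adjusted p = 0.266), and for vehicle over sham -0.78 ± 0.38 (adjusted p = 0.621). The call was lost without sham library 2 (adjusted p = 0.108), without PKC inhibitor library 2 (adjusted p = 0.0784) and without PKC inhibitor libraries 1 and 2 together (adjusted p = 0.235).

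Iglc2, one of the lambda constant genes, had 3.75, 11.3 and 11.7 normalised counts in PKC inhibitor libraries, 34.9, 22.6 and 27.3 in vehicle libraries, and 52.3, 40.6 and 15.1 in sham libraries. The inhibitor libraries were again below all others. The log2 fold change to sham joints was -2.03 ± 0.54 with the inhibitor (adjusted p = 0.0460), on 43 raw counts in the inhibitor libraries and 84 in the sham libraries. That call lay close to the threshold: leaving out any 1 library other than sham library 3 moved the adjusted p to between 0.0511 and 0.223, and leaving out PKC inhibitor libraries 1 and 2 together gave 0.344. For the inhibitor over vehicle the log2 fold change was -1.65 ± 0.54 (adjusted p = 0.185). In vehicle and sham libraries 61.9% to 89.5% of Iglc2 counts were also Iglj2 counts, so the 2 genes are not separate evidence. Iglj2, whose exon lies within that of Iglc2, had 0, 7.40 and 5.19 normalised counts in PKC inhibitor libraries, 21.6, 20.2 and 19.1 in vehicle libraries, and 38.4, 30.2 and 13.2 in sham libraries. Its adjusted p against sham joints was 0.0581 in edgeR and 0.0127 in DESeq2, which made it the fourth member called there. DESeq2 gave no adjusted p for 42 of the 50 members in that comparison.

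The other lambda genes did not pass. Iglc1 had a log2 fold change of -1.64 ± 0.66 for the inhibitor over sham (adjusted p = 0.197), and Iglc3 one of -1.06 ± 0.49 (adjusted p = 0.264). Igha had 4.50, 28 and 13 normalised counts in PKC inhibitor libraries, 24.9, 15.5 and 16.4 in vehicle libraries, and 41.9, 36.7 and 79.2 in sham libraries. Both injured groups lay below every sham library for Igha. Its log2 fold change to sham joints was -1.70 ± 0.54 with the inhibitor (adjusted p = 0.0952, and 0.0352 without PKC inhibitor library 2) and -1.47 ± 0.56 with vehicle (adjusted p = 0.433). Ighg2b, the most counted IgG gene, had 5.25, 3.90 and 3.89 normalised counts in PKC inhibitor libraries, 4.98, 9.51 and 17.7 in vehicle libraries, and 9.30, 17 and 24.5 in sham libraries. Its log2 fold change for the inhibitor over sham was -1.91 ± 0.69 (adjusted p = 0.143).

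Among the tested members, 6 had all PKC inhibitor libraries below all sham libraries, namely Igkc, Igha, Ighg2b, Ighm, Iglc2 and Iglj2. Of all genes tested, 11.6% separated that way. In a fit without the filter, all 11 constant genes had negative fold changes for the inhibitor over sham, with a median log2 value of -1.65. The median over all 18808 genes of that fit was 0.08. The comparisons share libraries, so their values are given side by side and not set against each other.

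**Figure D2:**
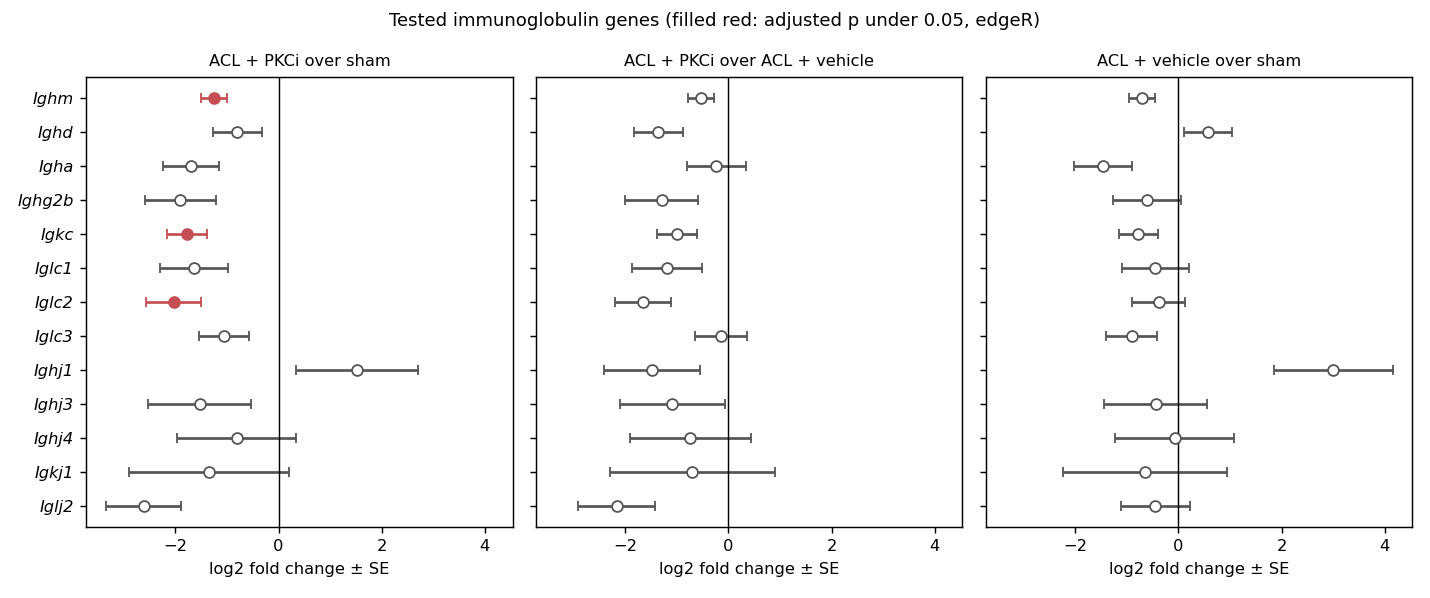
Log2 fold changes ± SE (horizontal axes) of the 13 tested immunoglobulin genes in 3 comparisons, with the tested members down the vertical axis. Filled red points passed an adjusted p of 0.05 in edgeR, which only Ighm, Igkc and Iglc2 did, with the PKC inhibitor against sham; Ighj1 is the point furthest to the right, at 3.0 for vehicle over sham.

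PKC inhibitor joints were then compared with vehicle joints, a contrast of injured joints with and without the inhibitor. No member was called, in edgeR or in DESeq2, against 0.731% of all genes tested in either direction. DESeq2 gave no adjusted p for 37 of the 50 members here, so it could not call them. The smallest adjusted p was 0.185, for Iglc2, and 5 members had an unadjusted p under 0.05. Igkc, Ighd, Ighm, Iglc2 and Iglj2 had every inhibitor library below every vehicle library, while 10.4% of all genes tested did. Ighd, chr12:113406604-113416324 on the minus strand, encodes the IgD constant region. It had 15.8, 17.1 and 16.9 normalised counts in PKC inhibitor libraries, 48.2, 55.9 and 24.6 in vehicle libraries, and 29.1, 44.6 and 11.3 in sham libraries. The inhibitor libraries were close together and below the vehicle libraries, but the lowest sham library was lower still. The log2 fold change of Ighd was -1.36 ± 0.47 for the inhibitor over vehicle (adjusted p = 0.209). In the fit without the filter, 10 of the 11 constant genes had negative values for the inhibitor over vehicle, and Ighg2c was the exception at 0.62. Their median log2 value was -0.96, against 0.08 over all genes of that fit.

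Vehicle joints were compared with sham joints, a contrast of ACL injury with vehicle against no ACL injury, without the inhibitor. No member was called, in edgeR or in DESeq2, against 0.304% of all genes tested. DESeq2 gave no adjusted p for 26 of the 50 members here. The smallest adjusted p was 0.367, for Ighm, and 3 members had an unadjusted p under 0.05. Ighm and Igha had every vehicle library below every sham library, which 8.76% of genes did, and Ighj1 had every vehicle library above, which 8.2% did. In the fit without the filter, 9 of 11 constant genes had negative values for vehicle over sham. Their median log2 value was -0.71, against -0.01 over all genes of that fit. Ighd, at 0.57, and Ighg3, at 0.36, were the exceptions.

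The class composition was dominated by IgM in every library. Ighm made up 87.1% ± 1.5 of heavy-chain constant counts in PKC inhibitor libraries, 83.7% ± 2.58 in vehicle libraries and 85.0% ± 4.0 in sham libraries (SD, n = 3 each). The lowest share was 80.7% in sham library 3 (95% Clopper-Pearson interval 76.3% to 84.6%) and the highest 88.6% in sham library 2 (86.4% to 90.6%). The shares of the groups overlapped in all 3 comparisons. These intervals cover counting error only, and the shares are per read count, without a correction for gene length.

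Igha took 4.14% ± 3.20 of heavy-chain constant counts in PKC inhibitor libraries, 3.52% ± 0.89 in vehicle libraries and 6.88% ± 4.14 in sham libraries. Single libraries ranged from 1.64% in PKC inhibitor library 1 (0.61% to 3.54%) to 11.3% in sham library 3 (8.24% to 14.9%), and the groups overlapped. The 4 IgG genes together took 3.98% ± 1.58 with the inhibitor, 4.81% ± 1.88 with vehicle and 4.88% ± 1.46 in sham joints. Ighd took 4.81% ± 0.91 with the inhibitor, 7.95% ± 2.91 with vehicle and 3.24% ± 1.45 in sham joints. The vehicle libraries, at 8.76%, 10.4% and 4.72%, were above the sham libraries, at 4.41%, 3.69% and 1.61%, and the nearest values of the groups, 4.72% and 4.41%, rested on 18 and 25 Ighd counts. Of 57 comparisons of shares between groups, 7 had no overlap, and none was tested. Among single genes tested, 8.2% separated higher and 8.76% lower for vehicle over sham. The number of 7 is therefore not read as a result. Shares of the same total depend on each other and the comparisons share libraries, so these 7 are not independent.

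The light chains split between kappa and lambda. Igkc held 55.3% ± 8.24 of light-chain constant counts in PKC inhibitor libraries, 54.1% ± 12.8 in vehicle libraries and 57.9% ± 9.93 in sham libraries. Libraries ranged from 40.2% in vehicle library 3 to 65.5% in vehicle library 2, so replicates of 1 group spanned the whole range. Within lambda, Iglc3 made up 66.7%, 39.0% and 38.2% of the constant counts in PKC inhibitor libraries, 23.1%, 23.1% and 27.3% in vehicle libraries, and 33.0%, 29.3% and 36.4% in sham libraries. No 2 groups overlapped in the Iglc3 share, on 22 to 92 lambda counts per library. The total holds Iglc2, whose counts include those of Iglj2. Iglj2 counts were 0%, 65.5% and 44.4% of Iglc2 counts in PKC inhibitor libraries. They were 61.9%, 89.5% and 70.0% in vehicle libraries and 73.3%, 74.2% and 87.5% in sham libraries. The part of Iglj2 reads in the Iglc3 share was not tested. Heavy-chain genes made up 83.7% ± 1.16 of all constant counts with the inhibitor and 79.7% ± 1.0 with vehicle, without overlap, and 80.5% ± 5.14 in sham joints.

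**Figure D3:**
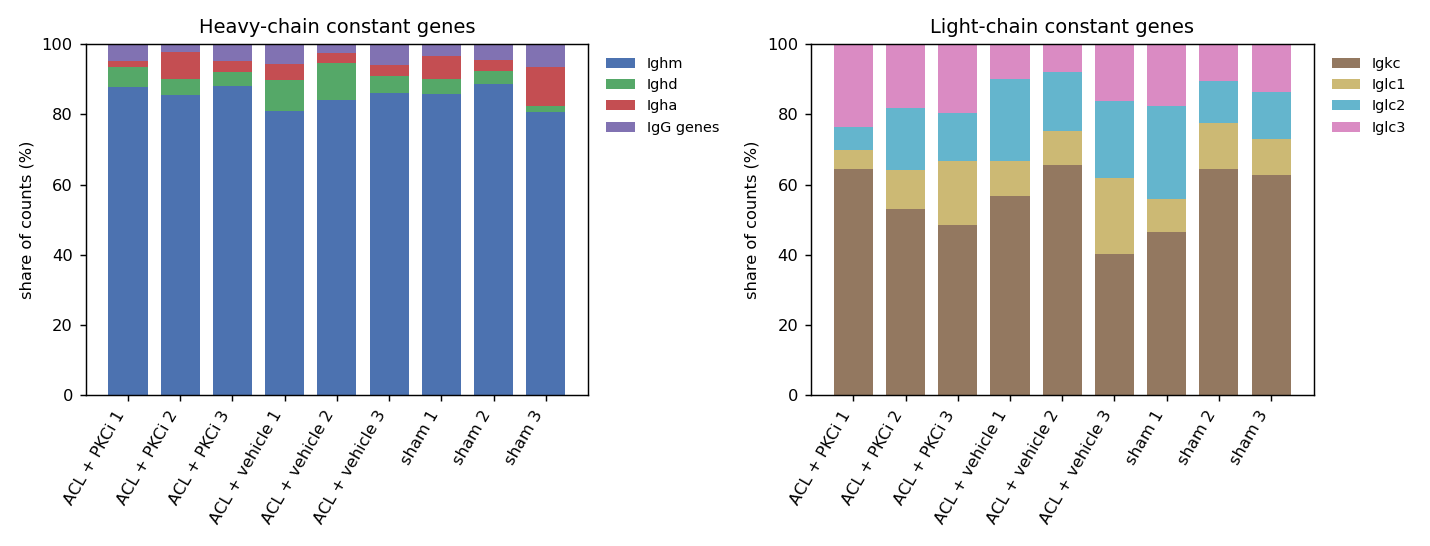
Shares of read counts (vertical axes, percent, from 0) of Ighm, Ighd, Igha and the IgG genes in heavy-chain constant counts, left, and of Igkc and Iglc1 to Iglc3 in light-chain constant counts, right, for each of the 9 libraries. Ighm filled 80.7% to 88.6% of every heavy-chain bar, and Igkc 40.2% to 65.5% of the light-chain bars.

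V segments were thinly counted. Only Iglv1 was counted in all 9 libraries among the 28 V members, and 11 of the 28 had at least 50% of their counts in 1 library. The highest single count was 35, for Ighv8-10 in PKC inhibitor library 2. Ighv8-10, annotated as a V pseudogene, had 12, 35 and 2 counts in PKC inhibitor libraries, 8, 2 and 3 in vehicle libraries, and 4, 6 and 0 in sham libraries. Ighv1-64, the functional heavy V segment counted most, had 9, 29 and 2 counts in PKC inhibitor libraries, 4, 1 and 0 in vehicle libraries, and 1, 8 and 0 in sham libraries. In both, PKC inhibitor library 2 had the highest raw count and the groups overlapped. Libraries differ in scaling, and after it that peak nearly went. Ighv8-10 had 13.6 normalised counts there and 13.3 in vehicle library 1. Ighv1-64 had 11.3 there and 10.5 in sham library 2. Ighv1-80 had 13 of its 24 counts in vehicle library 3.

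The kappa V segments of highest mean normalised count were Igkv10-95, with 29 counts in all, Igkv15-103, with 22, and Igkv10-96, with 16. Igkv10-96 shared 32 of its 260 windows with Igkv10-94. Iglv1 led the lambda V segments with 8, 7 and 8 counts in PKC inhibitor libraries, 8, 3 and 8 in vehicle libraries, and 10, 15 and 1 in sham libraries. Iglv3 had 25 counts and Iglv2 had 12. Iglv1 and Iglv2 matched at 353 of 364 aligned bases but shared only 5 windows of 100 bases.

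The number of V segments seen was compared at 1 common depth, because libraries held between 52 (sham library 3) and 256 (sham library 2) counts over the 346 V genes of the table. At 52 counts, 28, 26.2 and 22 segments were expected in PKC inhibitor libraries, 24.8, 26.9 and 26.1 in vehicle libraries, and 27.4, 34.8 and 25.0 in sham libraries. Sham library 2 was the most varied, and the groups overlapped. The most counted segment took 5.86% of the V counts in sham library 2 and 9.30% to 16.3% in the other libraries.

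J segment use was uneven between libraries. Ighj1 had 0, 26 and 5 counts in PKC inhibitor libraries, 15, 7 and 12 in vehicle libraries, and 0, 2 and 2 in sham libraries. Every vehicle library was above every sham library, while PKC inhibitor libraries spanned both. The log2 fold change of Ighj1 was 3.0 ± 1.16 for vehicle over sham (adjusted p = 0.437). The mean share of Ighj1 in heavy J counts was 22.9% ± 20.5 with the inhibitor and 45.2% ± 14.1 with vehicle. In sham joints it was 10.5% ± 15.7 (SD, n = 3 each). The mean share of Ighj2 was 19.8% ± 13.7 with the inhibitor, 5.59% ± 6.36 with vehicle and 34.3% ± 13.8 in sham joints. These shares rest on 7 to 66 heavy J counts per library. Among kappa J segments, Igkj1 had 26 counts in PKC inhibitor library 2, 18 in vehicle library 2 and 24 in sham library 2, 2 and 3 in PKC inhibitor library 1 and sham library 1, and 0 in the other 4.

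**Figure D4:**
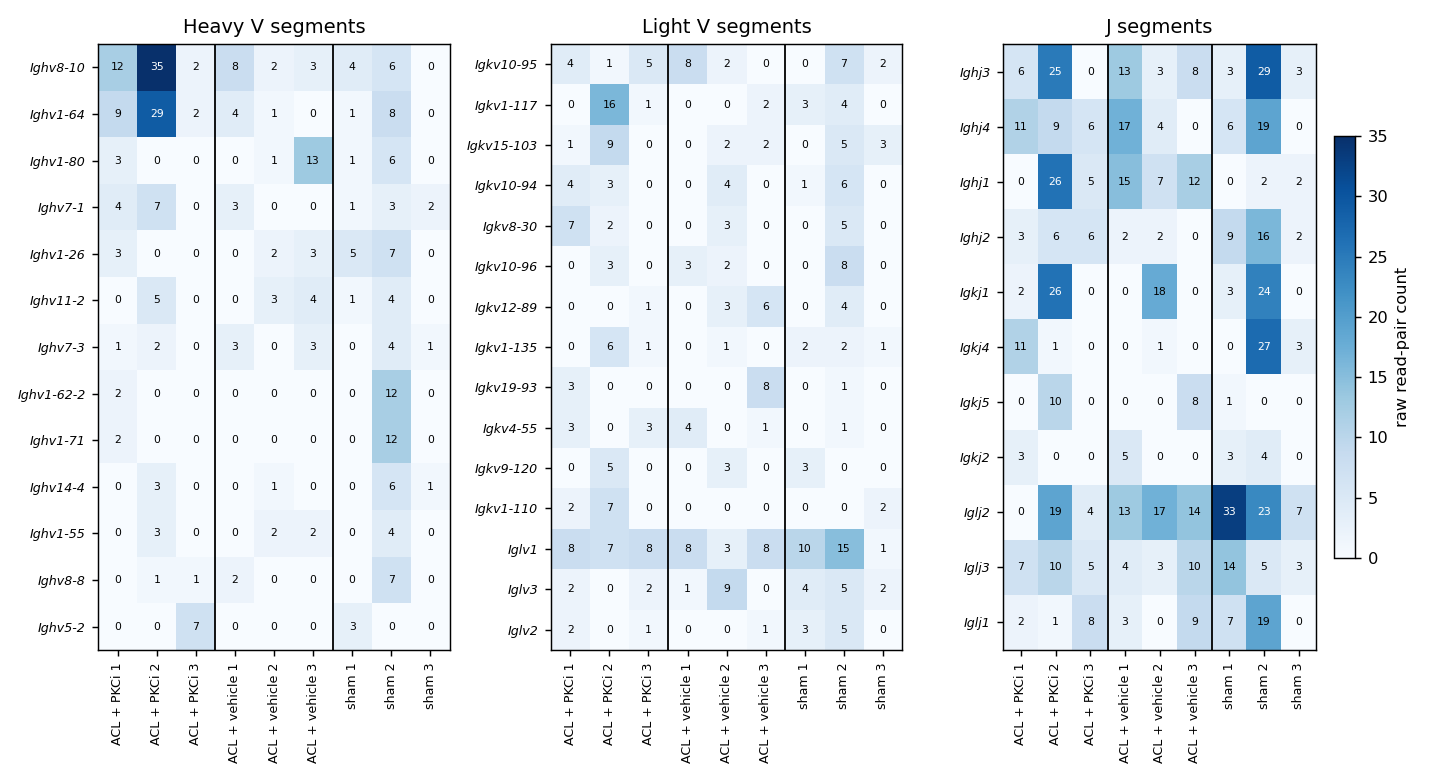
Raw read-pair counts (colour and printed numbers) of the heavy V, light V and J segment members, 1 row per segment and 1 column per library, with vertical lines between the PKC inhibitor, vehicle and sham libraries. Most cells are low or 0, the highest is 35 for Ighv8-10 in PKC inhibitor library 2, and Ighv1-62-2 and Ighv1-71 have equal rows.

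Genes of the cells that make immunoglobulin were set beside the members. Of 14 genes of mature B cells, 13 were tested, and 6 were lower in PKC inhibitor than in sham joints, among them Cd22, Cd79a, Cd79b, Cd37 and Bank1. The median log2 value of the 13 was -1.31, against 0.03 for all genes tested. Cd79a and Cd79b encode the signalling chains that sit with surface immunoglobulin in the B cell receptor. Cd79a had 9.75, 27.3 and 14.3 normalised counts in PKC inhibitor libraries, 66.5, 51.1 and 36.8 in vehicle libraries, and 52.3, 65.6 and 50.9 in sham libraries (log2 fold change for the inhibitor over sham -1.66 ± 0.41, adjusted p = 0.0334). Cd22, an inhibitory lectin of B cells, was also lower with the inhibitor than with vehicle, by a log2 fold change of -2.29 ± 0.40 (adjusted p = 0.0234), a call lost without vehicle library 2, without vehicle library 3, and without PKC inhibitor libraries 1 and 2 together. No gene of the list was called between vehicle and sham joints in edgeR (2 at an unadjusted p under 0.05) or in DESeq2, and its median log2 value there was -0.35. Against sham joints, the count of 6 fell to 2 without sham library 1, to 3 without sham library 2 or 3, and to 0 without PKC inhibitor libraries 1 and 2 together.

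Ighm counts per Cd79a and Cd79b count were 11.9, 5.92 and 17.1 in PKC inhibitor libraries, 4.54, 4.01 and 6.07 in vehicle libraries, and 5.34, 9.50 and 5.79 in sham libraries. The groups overlapped, and PKC inhibitor libraries 1 and 3, the highest, rested on 27 and 17 Cd79a and Cd79b counts. Genes of antibody secretion were not called. Of 14 such genes 11 were tested, and none passed in any comparison in edgeR or DESeq2, with 1 or 2 at an unadjusted p under 0.05. Among them were Jchain, which joins IgM and IgA polymers, Mzb1, a chaperone of secretory cells, and the plasma cell factors Xbp1, Irf4 and Prdm1. Jchain had 13.5, 10.5 and 19.5 normalised counts in PKC inhibitor libraries, 18.3, 8.32 and 31.4 in vehicle libraries, and 17.4, 72.1 and 9.43 in sham libraries, with sham library 2 again highest. The median log2 value of that list was -0.38 for the inhibitor over sham.

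Genes of B cell precursors, which make immunoglobulin in the marrow, were partly below the filter. Of 9 such genes 5 were tested and none was called in edgeR (1 or 2 per comparison at an unadjusted p under 0.05) or DESeq2. For the inhibitor over sham all 5 had negative values, with a median log2 value of -0.94. The median was -0.40 for vehicle over sham (4 negative) and -0.23 for the inhibitor over vehicle (3 negative). Summed, all 9 had 235 to 345 normalised counts in PKC inhibitor libraries. Vehicle libraries had 354 to 360 and sham libraries 407 to 463, without overlap, and the sum was not tested. Rag1, of the recombinase that joins V, D and J segments, had 18.8, 65.1 and 92.2 normalised counts in PKC inhibitor libraries, 104.7, 145.0 and 121.4 in vehicle libraries, and 113.9, 142.9 and 128.2 in sham libraries (log2 fold change for the inhibitor over sham -1.15 ± 0.42, adjusted p = 0.162). Vpreb1 and Igll1, which form the surrogate light chain, were not tested. None of the 7 tested genes of class switching was called in edgeR, where at most 1 had an unadjusted p under 0.05. DESeq2 called Il4ra, a cytokine receptor chain, in both injured groups against sham joints. None of the 9 tested receptors for immunoglobulin was called by either tool, with 1 to 3 at an unadjusted p under 0.05. The inhibitory IgG receptor Fcgr2b had a log2 fold change of 1.37 ± 0.35 for vehicle over sham (adjusted p = 0.159).

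Markers of other cells were set beside these genes. Of 8 marrow neutrophil genes, 6 were lower in PKC inhibitor than in sham joints, and Ltf was also lower with vehicle than in sham joints. For vehicle over sham, all 8 had negative values and an unadjusted p under 0.05 in edgeR, and DESeq2 called Camp, Ngp and Ltf. The median log2 value was -0.97 for vehicle over sham and -1.42 for the inhibitor over sham. None of the 8 was called between PKC inhibitor and vehicle joints in edgeR (5 at an unadjusted p under 0.05) or DESeq2. Summed, the 8 genes had 8100 to 17475 normalised counts in PKC inhibitor libraries, 8027 to 10353 in vehicle libraries and 15170 to 20812 in sham libraries. The 12 skeletal muscle genes summed to 3402 to 40326 normalised counts in PKC inhibitor libraries, 7237 to 9285 in vehicle libraries and 12288 to 30504 in sham libraries. None of them was called in edgeR or DESeq2, and 0 had an unadjusted p under 0.05. Their median log2 value was 0.88 for the inhibitor over vehicle, with 0 of 12 negative. PKC inhibitor library 1 held the sum of 40326, while libraries 2 and 3, at 3402 and 6974, lay below every vehicle library. The median was -1.21 for vehicle over sham, with 12 of 12 negative, and -0.31 for the inhibitor over sham, with 8 negative. Of 10 T cell genes 2 were tested, and Lck was lower with the inhibitor than in sham joints. Summed over all 10, T cell genes had 38.3 to 61.0 normalised counts in PKC inhibitor libraries, 69.6 to 86.4 in vehicle libraries and 58.5 to 115 in sham libraries. The part of marrow, muscle, 7SL and U3 content in the immunoglobulin differences was not tested.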

How the data were processed

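The authors deposited raw counts per gene name for the 9 libraries. Per the file headers, featureCounts 2.0.1 counted read pairs on the reverse strand over GENCODE M25 exons, in full at every location of a multi-mapping read and for every overlapping gene. Near-identical segments therefore share reads. HISAT2 and mm10 are named in the submitters' processing notes. Columns were matched to samples by name. Another 27 sample columns, of tables whose codes match no label, were not used.

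All later steps were run here. edgeR 4.0.16 (R 4.3.3) with TMM scaling and filterByExpr kept 13823 genes, and quasi-likelihood F tests (two-sided, 3 libraries a group, one fit of all 9) were adjusted by Benjamini-Hochberg over all of them at 0.05. SE is the standard error of the log2 fold change. The fit was tested on simulated data with the same spread for every gene. Of 2-fold changes it called 14% for vehicle over sham, 16% for the inhibitor over vehicle and 6% for the inhibitor over sham. Of 4-fold changes it called 84%, 90% and 96% in that order. A missing call therefore says little about changes near 2-fold. DESeq2 1.42.0 was an alternative. Others were RLE factors, no filter, the compared groups only, a replicate block, and fits without single libraries. Sums and shares were described without a test. Sequences, exon overlaps and shared windows came from GENCODE M21.

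The members, the lists and the rule for named genes (all constant genes, the 3 highest V segments per locus, the highest J segment, members of smallest p, called list genes) were chosen with earlier results of these data known. Other members are named for counts that were seen first, among them the identical V pair and Ighj2, Ighg2c and Igkj1. Some genes of the lists are not reported here by name.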

Additional observations from a re-analysis of the deposited data

How the results depend on the processing

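Across 447 refits of the named immunoglobulin genes, 421 kept their direction and their side of the threshold, 18 lost a call, 4 gained one and 4 changed sign. Only the refits of Ighm, Igkc and Iglc2 for the inhibitor over sham could lose a call. Most refits were of genes and comparisons without a call, so the 421 do not measure how stable these 3 calls were. For the inhibitor over sham, the count of 3 called members became 0 with the compared groups alone and 0 without PKC inhibitor libraries 1 and 2 together, and ranged from 0 to 3 when single libraries were left out. The smallest adjusted p with the compared groups alone was 0.0580. The counts of 0 in the other comparisons stayed at 0. The signs that changed, none of them called, were Iglc1 for vehicle over sham (-0.84 to 0.27, positive without sham library 2), Igha for the inhibitor over vehicle (-1.19 to 0.22, positive without PKC inhibitor library 1) and Iglc3 for the inhibitor over vehicle (-0.38 to 0.12, positive without vehicle library 3, and 0.14 without PKC inhibitor libraries 1 and 2).

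As CPM of the counts outside 7SL and U3, a scaling chosen after seeing the data, the log2 ratio of the constant sum to sham joints was -0.86 with the inhibitor and -0.30 with vehicle, and both overlapped the sham libraries. For the inhibitor over vehicle it was -0.56, without overlap. With TMM scaling, the log2 ratio of the sum for the inhibitor over vehicle was -0.39 without PKC inhibitor libraries 1 and 2. The kappa share from V segments was 68.3% with the inhibitor, 64.3% with vehicle and 56.9% in sham joints, which turns round the order of inhibitor and sham joints seen with the constant genes. With Iglc2 alone for lambda, also chosen after seeing the data, it was 81.3% with the inhibitor, 71.8% with vehicle and 76.8% in sham joints. The causes were not tested. With the replicate number as a block, 0 members were called for vehicle over sham, 0 for the inhibitor over vehicle and 2 for the inhibitor over sham, Iglc2 being lost (adjusted p = 0.0886). The 9 same-number pairs correlated by -0.24 to 0.07, and pairs of different number by -0.17 to 0.20. These correlations gave no sign of pairing by number, but they cannot exclude that same-number libraries were handled together.

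With 396 to 1181 constant counts per library, depth limits what the test can call, and V and J use can be described only as counts.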
